A study of Mus musculus with 6 samples.

Results

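Genes of neurotransmitter receptors and of the synaptic vesicle cycle were followed in a mouse medulloblastoma line exposed for 6 h to an inhibitor of BET bromodomain proteins or of Smoothened. Probes were taken by gene symbol (AMPA, NMDA, kainate and metabotropic glutamate receptors, GABA-A, glycine and nicotinic receptors, synaptotagmins, syntaxins, VAMPs, neurexins, neuroligins, Snap25, Syn1, Syn2, Syp, Dlg4, Shank1 and Homer1), provided that 2 or more of the 6 arrays showed them above background (detection p under 0.01). This gave 36 genes, read by 57 probes, out of 30869 gene symbols (45281 probes) on the array, of which 12138 (17026 probes) were above background by the same rule. The choice used detection only and no comparison between groups. All 6 samples were SmoWT-MB cells, which the labels describe as a line derived from mouse medulloblastoma and deficient in Ptch, the receptor that holds Smoothened inactive. The 3 groups of 2 arrays were cells in DMSO, the solvent control, cells in JQ1, which displaces BET proteins from acetylated chromatin, and cells in GDC-0449, which blocks Smoothened. The labels give no dose, and the line is a single one, so nothing here speaks to other tumours. Separate cultures for the samples of one group are not stated, and the p-values then cover only the spread of the samples at hand, which can be purely technical.

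Fast excitation in the brain runs through glutamate-gated channels of the AMPA, NMDA and kainate classes, and fast inhibition through chloride channels gated by GABA or glycine. Nicotinic receptors are cation channels gated by acetylcholine, assembled as pentamers in the nervous system and in muscle. On the sending side, transmitter leaves vesicles when a vesicle SNARE (VAMP) pairs with target SNAREs (a syntaxin and SNAP-25), with synaptotagmins as calcium sensors and synapsins and synaptophysin on the vesicle surface. Neurexins and neuroligins join both membranes across the cleft, and Homer and PSD-95 (Dlg4) organise the receiving side. Many syntaxins and VAMPs serve membrane traffic in every cell and are not restricted to neurons.

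The rule on symbols matched 230 probes of 112 genes, and most receptor genes were not above background in these cells. Among glutamate-gated channels 9 of 37 probes were members (5 of 16 genes), and no probe for an NMDA receptor subunit was. All 16 probes for metabotropic glutamate receptors lay below background on all 6 arrays. Of the GABA-A and glycine receptor probes 2 of 44 were members, for 2 of 21 genes, and of the nicotinic receptor probes 5 of 34, for 4 of 16 genes. SNARE genes were seen more often, with 25 of 45 probes and 14 of 23 genes, though Snap25, the neuronal target SNARE, was not above background. Synaptotagmins had 6 of 27 probes and 4 of 17 genes, vesicle proteins 4 of 6 probes and all 3 genes, and adhesion and scaffold genes 6 of 21 probes and 4 of 8 genes. Dlg4, Gabra3, Grin2c and Syt9 just missed, with a probe above background on 1 array, as did further probes of Homer1 and Vamp1. Just inside, on 2 arrays, were the Glrb probe and 1 probe each of Gria2, Nrxn2 and Stx8. A probe below background gives no level, so the absence of these receptors is not shown.

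**Figure D1:**
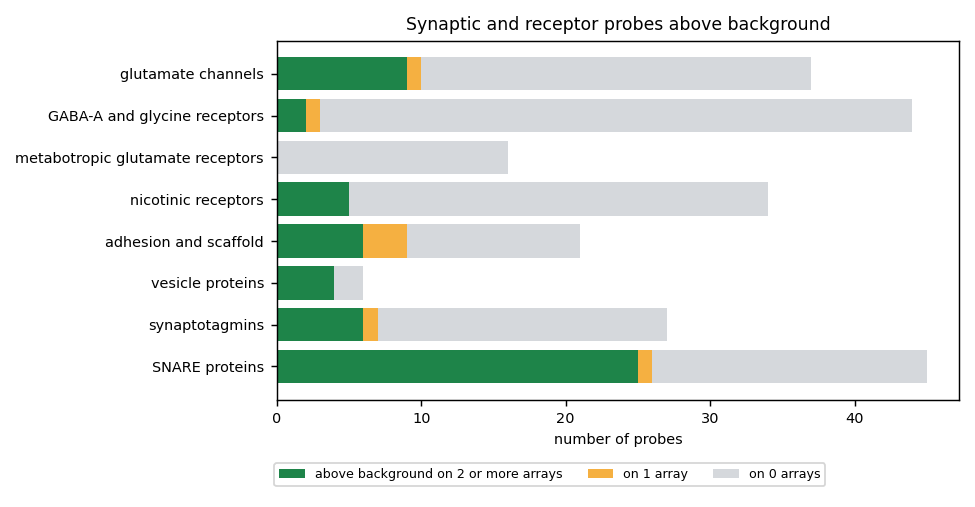
Number of probes (x axis) in each role group that lay above background (detection p under 0.01) on 2 or more arrays, on 1 array or on 0 of the 6 arrays. SNARE probes passed in 25 of 45 cases, while all 16 metabotropic glutamate receptor probes were above background on 0 arrays.

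The arrays had 15125 to 16466 probes above background, fewest on the JQ1 arrays, and 55 and 53 of the members were above background with DMSO, 43 and 46 with JQ1, and 54 and 52 with GDC-0449. The 2 arrays of a group correlated at r = 0.9953 to 0.9956 across tested probes, which are not independent replicates. Hhip, a target gene of the hedgehog pathway, stood at log2 intensities of 7.58 and 7.53 with DMSO, 5.94 and 6.08 with JQ1, and 5.59 and 5.64 with GDC-0449. Markers of granule neuron precursors, the cells of origin of this tumour type, were tested for 10 of 15 genes. Atoh1, Boc, Pax6 and Zic5 were below background on every array. Each marker sum is linear and runs over the brightest probe of every listed gene on the array, also those below background. For this list it was 12391 to 12500 with DMSO, 17341 to 17649 with JQ1 and 17174 to 17377 with GDC-0449. Of 12 neuron markers 5 were tested and Tubb3, Stmn2, Nefl, Nefm and L1cam were below background on every array; the sum was 1454 to 1466 with DMSO, 1202 to 1209 with JQ1 and 1919 to 1938 with GDC-0449. Oligodendrocyte lineage markers (5 of 10 tested, Olig1, Olig2, Sox10, Mag and Mog below background on every array) summed to 746 to 791, 344 to 351 and 644 to 655 in the same order. Astrocyte markers (4 of 9 tested, Gfap, Aqp4, Aldh1l1, S100b and Fgfr3 below background on every array) summed to 8293 to 9337, 9394 to 9412 and 8193 to 8520. This sum does not speak for each gene. With JQ1 the tested Slc1a3 and Slc1a2 were called lower (log2 changes -0.86 and -0.66, limma adjusted p = 0.000116 and 0.00126). Changes of Gja1 and Sox9, the others tested, are not given here. Of 8 microglia markers Csf1r alone was tested. The sum over the whole list, 7 of its genes below background on every array, was 187 to 202, 197 to 208 and 194 to 209. Of 7 endothelial markers Esam and Kdr were tested, and the whole list summed to 194 to 202, 249 to 256 and 197 to 201. Of 7 fibroblast markers Thy1, which neurons also express, was the one tested, and the whole list summed to 628 to 670, 293 to 315 and 745 to 767. The other markers of these 3 lists, Ptprc, Pecam1 and Col1a1 among them, were below background on every array. The part of these shifts in the values below was not tested, and fewer cells of a type cannot be told apart from less RNA per cell. Since the arrays were quantile normalized, all values are relative within an array, and a shift shared by most genes would not show.

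JQ1 against DMSO asks how these transcripts change when BET proteins are displaced from chromatin. The 57 probes split between increases and decreases: by limma, adjusted over all tested probes, 18 rose, 21 fell and 18 did not pass. Over all tested probes the test called 56.4%, with 27.6% higher and 28.8% lower, against 68.4% of the members with 31.6% and 36.8%. The median log2 change of the members was -0.04, beside -0.000502 over all tested probes. It was 0 with the 11 members that have a group wholly below background set to the bound on their change. Members for which no bound could be given were set to 0, and this median is such a set value. The JQ1 and DMSO arrays did not overlap for 43 members (75.4%), against 78.6% of all tested probes. By brightest probe, 11 of the 36 genes rose and 13 fell (66.7%), against 58.3% called over all genes tested with 1 probe each. Glutamate channels were lower on 7 of 9 probes, the synapsins and Homer1 rose on each of their probes, and the SNARE genes went both ways, with 9 of 25 probes higher and 6 lower.

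GDC-0449 against DMSO asks the same of blocking Smoothened. Here 12 probes rose, 6 fell and 39 did not pass, that is 31.6% called, while 15.3% of all tested probes were called, 7.24% higher and 8.11% lower. The median change was 0.13 on the log2 scale (0.12 with 3 such members at their bound or at 0), beside 0.0138 over all tested probes. The arrays did not overlap for 39 members (68.4%), against 60.6% of all tested probes. The calls leaned on single arrays: 1 probe rose without DMSO array 1, 3 without DMSO array 2, 3 without GDC-0449 array 1 and 1 without GDC-0449 array 2, and 3 fell without DMSO array 1. With any of these 4 arrays left out, between 4.24% and 6.18% of all tested probes were called. With no filter on dim probes 4 members rose. The decreases of Glrb and of 1 Gria2 probe were fixed by the detection rule, as both were above background with DMSO alone. That Gria2 probe is 1 of the 2 named next. The same holds with JQ1 for both of these decreases, and for the rise of an Nrxn2 probe above background with JQ1 alone. None of the 12 increases held with each of the 6 arrays left out, and of the 6 decreases 3 did, on 2 Gria2 probes and Syt13; of the JQ1 calls 13 of 18 increases and 19 of 21 decreases did.

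Both comparisons share the DMSO arrays, so their values are given side by side. Of the 57 probes 5 were lower with either compound (3 for Gria2, and those of Syt13 and Glrb), 5 higher with either (2 for Stx5a, and those of Stx7, Nlgn2 and Syt1), and 3 lower with JQ1 and higher with GDC-0449 (Chrna3 and Syp among them). Glrb and 1 of the Gria2 probes were above background with DMSO alone, so the detection rule fixed them as lower with either compound. The rule also favoured higher values of Chrna3 with GDC-0449, the group through which it passed. A further 13 rose and 13 fell with JQ1 alone past the threshold, 4 rose and 1 fell with GDC-0449 alone, and 13 passed in neither comparison. These joint patterns were not counted over all tested probes, so nothing particular to the members is read from them. JQ1 against GDC-0449 compares the treatments directly, with no DMSO value in the difference: 14 members were higher with JQ1 and 23 lower, 64.9%, against 52.2% of all tested probes (25.6% higher, 26.5% lower). The JQ1 and GDC-0449 arrays did not overlap for 47 members (82.5%), against 76.9% of all tested probes. The median difference was -0.24 (-0.10 with 11 such members at their bound or at 0), beside 0.00635.

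**Figure D2:**
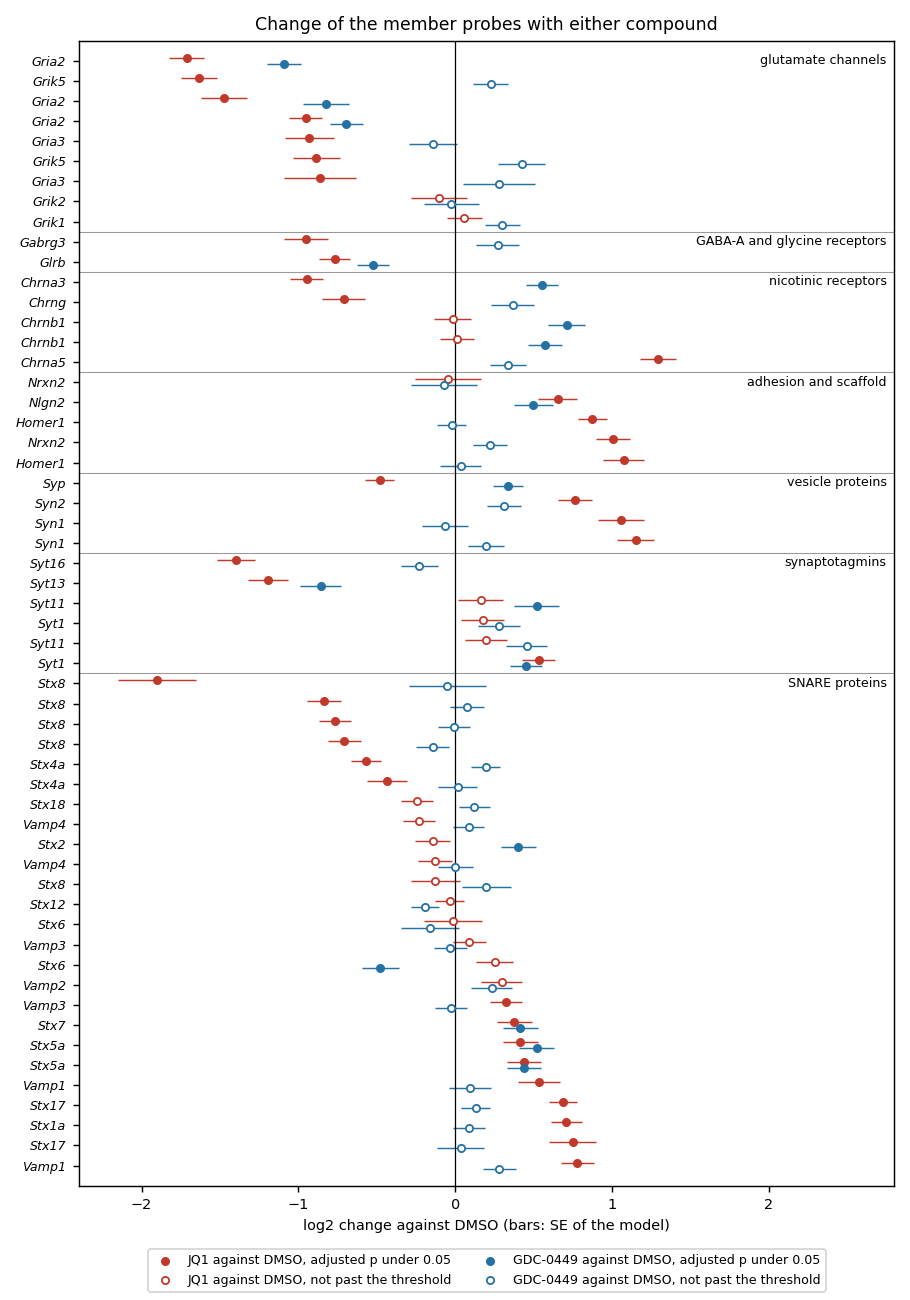
Log2 change against DMSO (x axis) of the member probes, by role group, with JQ1 (red) and GDC-0449 (blue); bars are the SE of the model and filled points passed adjusted p under 0.05. All 7 called glutamate channel probes lie left of 0 with JQ1, while the 3 Gria2 probes lie left of 0 with either compound. The dimmest Gria2 probe was above background with DMSO alone. Where a group had no array above background the plotted change is only the fitted value.

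With JQ1, 7 of the 9 glutamate channel probes were called lower and none higher. Over all tested probes 28.8% were lower and 27.6% higher. The 9 probes read 5 genes, and the calls were on Gria2, Gria3 and Grik5. Their median log2 change, over all 9 probes, was -0.93 (-0.86 with 3 probes at their bound). Gria2 encodes the AMPA receptor subunit that makes the channel impermeable to calcium. Its brightest probe (ILMN_2680737) read 9.53 and 9.49 on the DMSO arrays, 8.03 and 8.04 with JQ1, and 8.92 and 8.45 with GDC-0449. The 3 groups did not overlap, with JQ1 lowest and the GDC-0449 arrays in between and further apart from each other. The fall was 2.78-fold with JQ1 (log2 change -1.47, SE 0.15, limma adjusted p = 7.4e-05) and 1.77-fold with GDC-0449 (-0.82, SE 0.15, adjusted p = 0.0104), and the direct difference between compounds passed as well (-0.65, adjusted p = 0.00591). A second Gria2 probe fell by 0.95 with JQ1 and by 0.69 with GDC-0449. The dimmest one was below background on all 4 treated arrays and at 6.24 and 6.06 with DMSO, at least 1.63-fold lower with JQ1 (adjusted p = 8.82e-06) and at least 1.89-fold lower with GDC-0449 (adjusted p = 0.00111). That probe entered the members through the DMSO arrays alone and so had to differ. The GDC-0449 call of the brightest probe was lost without DMSO array 1 (adjusted p = 0.068) or DMSO array 2 (0.056), while those of the other probes were kept.

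Grik5 and Gria3 were lower with JQ1 than with GDC-0449 on each of their probes, while the kainate subunits Grik1 and Grik2 passed in no contrast. Grik5, an auxiliary kainate receptor subunit with high affinity for glutamate, read 6.26 and 6.40 with DMSO, 4.69 and 4.70 with JQ1 and 6.68 and 6.44 with GDC-0449 on 1 probe, and 5.94 and 6.36, 5.39 and 5.14, and 6.57 and 6.58 on the other. Every JQ1 array was lower than every other array on both probes, and below background. Grik5 was thus at least 1.85-fold and at least 1.63-fold lower with JQ1 (adjusted p = 1.21e-05 and 0.00126), and did not pass with GDC-0449 (log2 changes 0.23 and 0.42, adjusted p = 0.209 and 0.0923). Against GDC-0449 it was at least 2.16-fold and at least 2.19-fold lower (adjusted p = 7.73e-06 and 0.000169). Gria3, another AMPA subunit, read 6.77 and 6.67 with DMSO, 5.65 and 6.08 with JQ1 and 6.62 and 7.37 with GDC-0449 on its brightest probe. The JQ1 arrays lay below the others while the GDC-0449 arrays spanned the DMSO range; its 2 probes changed by -0.86 and -0.93 with JQ1 (adjusted p = 0.0127 and 0.00115). The first of these calls was lost without DMSO array 1 (adjusted p = 0.0685), without DMSO array 2 (0.0515) and without JQ1 array 1 (0.073). Between the compounds, Gria3 differed by -1.14 and -0.79 (adjusted p = 0.00351 and 0.00296). For Grik1 and Grik2 the changes with JQ1 were 0.06 (95% interval -0.20 to 0.31) and -0.10 (-0.51 to 0.30), and the differences between compounds were -0.24 (-0.50 to 0.01) and -0.08 (-0.48 to 0.33).

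The inhibitory receptors were down to 2 members, of which Gabrg3 fell with JQ1, while Glrb passed the detection rule through the DMSO arrays alone and so had to be lower elsewhere. Gabrg3, a gamma subunit of the GABA-A receptor, read 5.52 and 5.91 with DMSO, 4.74 and 4.78 with JQ1, and 5.90 and 6.07 with GDC-0449. It was below background on both JQ1 arrays, at least 1.20-fold lower than with DMSO (limma adjusted p = 0.000565) and at least 1.45-fold lower than with GDC-0449 (adjusted p = 0.000164). Glrb, the beta subunit that anchors glycine receptors to gephyrin, read 5.42 and 5.28 with DMSO, 4.53 and 4.64 with JQ1, and 4.86 and 4.79 with GDC-0449. It lay close to the lowest signal above background with DMSO (5.19 and 5.23). The test called it lower with JQ1 (adjusted p = 0.000327), with no fold given because the bound falls under 1, and lower by at least 1.09-fold with GDC-0449 (adjusted p = 0.0129). The GDC-0449 call was lost without DMSO array 1 (adjusted p = 0.0907), GDC-0449 array 1 (0.0515) or GDC-0449 array 2 (0.0687).

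Nicotinic subunits went in different directions. Chrna5, an accessory subunit of neuronal nicotinic receptors, read 6.10 and 6.03 with DMSO, 7.33 and 7.38 with JQ1, and 6.54 and 6.27 with GDC-0449. Both JQ1 arrays lay above all others; it rose 2.45-fold (log2 change 1.29, SE 0.11, adjusted p = 3.92e-05), the largest increase among the members in that comparison, and the change with GDC-0449 did not pass (0.34, 95% interval 0.08 to 0.60, adjusted p = 0.0801). Chrna3, a ligand-binding subunit of ganglionic receptors, read 5.27 and 5.19 with DMSO, 4.31 and 4.25 with JQ1, and 5.69 and 5.88 with GDC-0449. The 3 groups were apart, with JQ1 lowest and below background and GDC-0449 highest. Its calls were lower with JQ1 (adjusted p = 0.000127, no fold given because only 1 DMSO array was above background and the bound falls under 1) and higher with GDC-0449 (1.47-fold, log2 change 0.55, SE 0.10, adjusted p = 0.0123). The direct contrast put Chrna3 at least 1.26-fold lower with JQ1 than with GDC-0449 (adjusted p = 1.38e-05). Chrna3 passed the detection rule only through the GDC-0449 arrays, so that rule favoured its higher values there in both of these contrasts. Its GDC-0449 call was lost without DMSO array 1 (adjusted p = 0.0611), DMSO array 2 (0.0706) or GDC-0449 array 2 (0.0705), and did not pass in the authors' value table.

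Chrnb1 and Chrng encode subunits of the muscle receptor. Chrnb1 read 7.11 and 7.35 with DMSO, 7.19 and 7.28 with JQ1, and 7.81 and 7.79 with GDC-0449. The GDC-0449 arrays stood above the rest, while the JQ1 arrays fell inside the DMSO range. It rose 1.49-fold with GDC-0449 (log2 change 0.57, SE 0.11, limma adjusted p = 0.013) and a second probe rose by 0.71 (adjusted p = 0.00803); with JQ1 the changes were 0.01 (95% interval -0.24 to 0.26) and -0.02 (-0.29 to 0.25). The first call was lost without DMSO array 1 (adjusted p = 0.0793), GDC-0449 array 1 (0.065) or GDC-0449 array 2 (0.0551), and the second without DMSO array 1 (0.0579). Chrng, the gamma subunit of the fetal receptor, read 5.64 and 5.50 with DMSO, 5.06 and 4.66 with JQ1, below background, and 5.96 and 5.91 with GDC-0449. It was at least 1.09-fold lower with JQ1 than with DMSO (adjusted p = 0.00268) and at least 1.41-fold lower than with GDC-0449 (adjusted p = 0.000323).

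Some members lie close to one another in the genome. In the RefSeq gene table of GRCm38.p6, where all 36 members were found, 3 pairs lay within 100 kb of each other, and their values are shown because genes at close range need not respond alike. Gria2 (chr3:80681450-80804227) and Glrb (chr3:80843598-80913660) are 39.4 kb apart with 0 coding genes between them. Both were called lower with either compound, but for Glrb the detection rule fixed that direction, and its GDC-0449 call was lost with any of 3 arrays left out, so no shared response is read from this pair. Chrna5 (chr9:54980827-55011420) and Chrna3 (chr9:55010117-55026562) overlap at their ends and are read from opposite strands, and with JQ1 Chrna5 rose while Chrna3 was called lower. Chrna3 was above background on only 1 DMSO array and no fold could be given for it, so no opposite response is read from this pair. Whether either probe lies in the overlap was not tested. Chrnb1 (chr11:69784036-69795966) and Nlgn2 (chr11:69823123-69837784) are 27.2 kb apart with 5 coding genes between them; both rose with GDC-0449, in calls that single arrays decide for either gene, and Nlgn2 rose with JQ1 as well.

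**Figure D3:**
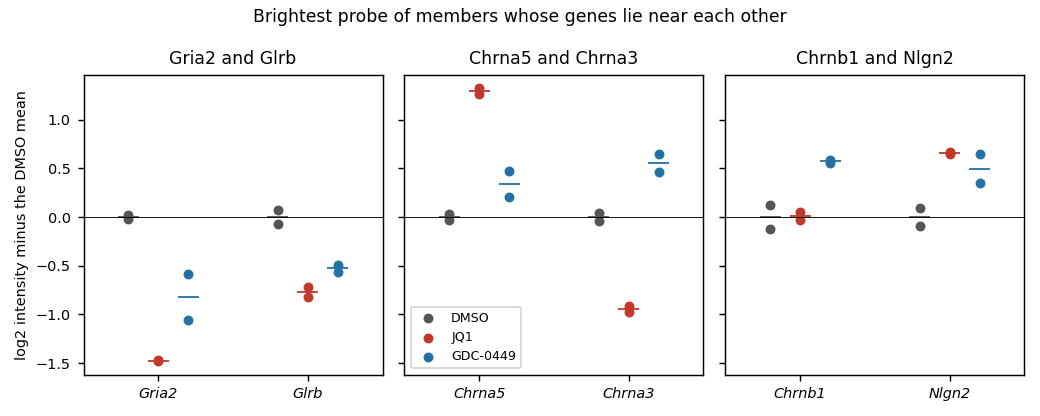
Log2 intensity of each array minus the DMSO mean (y axis) for the brightest probe of 3 pairs of neighbouring genes; points are arrays and short lines group means of 2 arrays. Gria2 and Glrb (the latter above background with DMSO alone) lie below 0 with either compound, Chrna5 and Chrna3 lie on opposite sides of 0 with JQ1, and Chrnb1 and Nlgn2 lie above 0 with GDC-0449. Chrna3 was below background with JQ1 and above it on only 1 DMSO array.

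Among adhesion and scaffold genes 4 of 6 probes were called higher with JQ1 (27.6% of all tested probes were), 1 of them an Nrxn2 probe that became a member through the JQ1 arrays alone. Homer1, a scaffold that ties metabotropic glutamate receptors to calcium stores, read 7.60 and 7.79 with DMSO, 8.89 and 8.65 with JQ1, and 7.84 and 7.63 with GDC-0449. The JQ1 arrays were highest and the GDC-0449 arrays overlapped with DMSO. It rose 2.10-fold with JQ1 (log2 change 1.07, SE 0.13, limma adjusted p = 0.000198), a second probe rose by 0.87, and with GDC-0449 the changes were 0.03 (95% interval -0.26 to 0.33) and -0.02 (-0.23 to 0.19). Nlgn2, the neuroligin of inhibitory synapses, read 8.24 and 8.04 with DMSO, 8.78 and 8.80 with JQ1, and 8.49 and 8.78 with GDC-0449. All treated arrays were above both DMSO arrays, and Nlgn2 rose by 0.65 with JQ1 (adjusted p = 0.00239) and by 0.50 with GDC-0449 (adjusted p = 0.0327), with a direct difference of 0.16 (95% interval -0.13 to 0.44). The GDC-0449 call was lost without DMSO array 1 (adjusted p = 0.0754), DMSO array 2 (0.151) or GDC-0449 array 2 (0.152). The 2 Nrxn2 probes disagreed with JQ1. One was below background on all DMSO and GDC-0449 arrays and at 5.87 and 5.62 with JQ1, at least 1.45-fold higher than with DMSO (adjusted p = 0.000122), and entered the members through JQ1 alone; the other, above background on 1 array of each group, changed by -0.05.

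On the vesicle surface, the synapsins rose with JQ1 and synaptophysin fell. Syn1, which tethers vesicles to actin and to each other, read 6.19 and 6.15 with DMSO, 7.27 and 7.37 with JQ1, and 6.22 and 6.51 with GDC-0449. The JQ1 arrays lay above all others, and the GDC-0449 arrays close to DMSO. Syn1 rose 2.22-fold with JQ1 (log2 change 1.15, SE 0.12, limma adjusted p = 8.12e-05), and a second probe rose 2.08-fold; with GDC-0449 the changes were 0.20 (95% interval -0.07 to 0.46) and -0.07 (-0.40 to 0.27). Syn2, its paralogue, read 9.00 and 9.25 with DMSO, 9.86 and 9.90 with JQ1, and 9.42 and 9.44 with GDC-0449. It rose 1.70-fold with JQ1 (adjusted p = 0.000508), and 0.31 with GDC-0449 did not pass (95% interval 0.06 to 0.56, adjusted p = 0.0912). Syp, synaptophysin, a membrane protein of the vesicle that binds synaptobrevin, read 7.92 and 7.94 with DMSO, 7.49 and 7.40 with JQ1, and 8.25 and 8.29 with GDC-0449. The groups were apart, JQ1 lowest and GDC-0449 highest: Syp fell 1.40-fold with JQ1 (log2 change -0.48, SE 0.09, adjusted p = 0.0025) and rose 1.26-fold with GDC-0449 (0.34, SE 0.09, adjusted p = 0.0451), and the direct difference was -0.82 (adjusted p = 0.000163). The rise with GDC-0449 did not pass with any of the 6 arrays left out, from adjusted p = 0.059 without JQ1 array 2 to 0.154 without GDC-0449 array 2 (0.0593 without JQ1 array 1, 0.154 without DMSO array 1, 0.123 without DMSO array 2 and 0.128 without GDC-0449 array 1), nor with the replicate number as a block.

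Promoter sequence is printed for 4 members with opposite calls under JQ1, Gria2 and Chrna3 (called lower) and Homer1 and Syn1 (higher), so that the letters can be read beside the calls. For Chrna3 no fold could be given. Each is the 250 bases before a RefSeq transcript start on GRCm38.p6, on the strand of the gene and 5′ to 3′. Capitals mark matches to searched motifs. The windows are chr3:80802836-80803085 (minus strand) for Gria2, chr9:55026563-55026812 (minus) for Chrna3, chr13:93303507-93303756 (plus) for Homer1 and chrX:20920919-20921168 (minus) for Syn1. The Gria2 window lies inside the annotated gene (chr3:80681450-80804227), before an internal transcript start.
Gria2: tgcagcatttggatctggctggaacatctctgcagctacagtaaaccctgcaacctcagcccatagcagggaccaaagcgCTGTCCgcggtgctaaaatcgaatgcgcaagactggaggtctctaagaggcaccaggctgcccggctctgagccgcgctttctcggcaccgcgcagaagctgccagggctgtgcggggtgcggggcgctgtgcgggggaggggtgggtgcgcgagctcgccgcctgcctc
Chrna3: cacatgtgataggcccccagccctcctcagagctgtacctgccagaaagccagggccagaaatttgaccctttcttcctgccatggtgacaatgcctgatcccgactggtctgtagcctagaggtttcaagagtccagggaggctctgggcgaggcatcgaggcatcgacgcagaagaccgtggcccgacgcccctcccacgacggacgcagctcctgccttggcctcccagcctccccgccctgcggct
Homer1: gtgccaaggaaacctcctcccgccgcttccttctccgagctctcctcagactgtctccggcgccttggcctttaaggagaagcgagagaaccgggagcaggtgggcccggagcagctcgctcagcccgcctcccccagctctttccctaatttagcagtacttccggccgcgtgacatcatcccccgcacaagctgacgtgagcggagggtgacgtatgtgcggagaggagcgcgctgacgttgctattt
Syn1: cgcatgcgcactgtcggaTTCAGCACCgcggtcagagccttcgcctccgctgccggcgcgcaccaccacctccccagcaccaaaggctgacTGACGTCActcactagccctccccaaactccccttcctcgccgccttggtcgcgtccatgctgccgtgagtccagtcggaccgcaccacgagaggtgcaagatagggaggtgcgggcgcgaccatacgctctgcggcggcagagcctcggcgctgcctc

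The motifs were searched on both strands over 250 bases before and 50 after the start, in 37 promoters of the 29 members that the table holds, and none of the motifs contains another. RE1 is the element bound by REST, a repressor of neuronal genes, and its left arm TTCAGCACC matched in Syn1 alone among the members, beside 0.371% of 32851 promoters. The right arm GGACAG, too short to be specific, matched in 9 member genes, Gria2 among them as its reverse complement CTGTCC, and in 22.2% of all promoters. The cAMP response element TGACGTCA matched in Syn1 (1.79% of all promoters), the TATA box TATAAA in Chrnb1 and Stx2 (13.6%), and the GLI site GACCACCCA of the hedgehog pathway in 0 members (0.253%). Of the printed windows, those of Chrna3 and Homer1 hold no match. These are matches of letters and carry no statement about binding.

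Among synaptotagmins, Syt13 and Syt16 fell with JQ1. Both belong to the members of the family that lack the calcium-binding residues of Syt1. Syt13 read 6.44 and 6.51 with DMSO, 5.11 and 5.45 with JQ1, and 5.53 and 5.70 with GDC-0449. All treated arrays were below DMSO, by 2.29-fold with JQ1 (log2 change -1.19, SE 0.13, limma adjusted p = 0.000117) and 1.81-fold with GDC-0449 (-0.86, SE 0.13, adjusted p = 0.00556), with a direct difference of -0.34 that did not pass (95% interval -0.63 to -0.04, adjusted p = 0.0574). Syt16 read 6.02 and 5.84 with DMSO, 4.51 and 4.55 with JQ1, below background, and 5.57 and 5.83 with GDC-0449. It was at least 1.40-fold lower with JQ1 (adjusted p = 3.37e-05), and its change with GDC-0449 did not pass (-0.23, adjusted p = 0.224). Syt1, the calcium sensor of fast release, read 7.75 and 7.63 with DMSO, 8.30 and 8.15 with JQ1, and 8.09 and 8.19 with GDC-0449. Its brightest probe rose by 0.53 with JQ1 (adjusted p = 0.00263) and by 0.45 with GDC-0449 (adjusted p = 0.0246), while its second probe did not pass in either comparison (0.17 and 0.28). The GDC-0449 call of Syt1 was lost without DMSO array 1 (adjusted p = 0.0735), DMSO array 2 (0.109), GDC-0449 array 1 (0.0708) or GDC-0449 array 2 (0.11). Syt11, an inhibitor of vesicle retrieval, had 1 of 2 probes higher with GDC-0449 (0.52, adjusted p = 0.0461), but this did not hold without DMSO array 2 (0.185), JQ1 array 1 (0.0535), JQ1 array 2 (0.0531), GDC-0449 array 1 (0.101) or GDC-0449 array 2 (0.174).

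The SNARE genes were the largest group, and their calls with JQ1 were near the share over all tested probes: 9 of 25 probes rose (36%, against 27.6%) and 6 fell (24%, against 28.8%). Stx8, an endosomal syntaxin, had 5 member probes. Its brightest read 9.38 and 9.60 with DMSO, 8.62 and 8.69 with JQ1, and 9.50 and 9.63 with GDC-0449. Only the JQ1 arrays were low, and Stx8 fell 1.79-fold with JQ1 (log2 change -0.84, SE 0.11, limma adjusted p = 0.000321) with a change of 0.07 with GDC-0449 (95% interval -0.18 to 0.32). Its other probes changed by -0.77, -0.71, -1.90 and -0.13 with JQ1, and the last, close to background, did not pass. The probe with the largest fall read 7.14 and 7.32 with DMSO and 4.87 and 5.79 with JQ1, where 1 array was above background, so the probes agree in sign and not in size. Stx4a, a plasma membrane syntaxin, fell on both probes, by 0.57 and 0.43. The smaller call was lost without JQ1 array 1 (adjusted p = 0.0539), JQ1 array 2 (0.0667) or DMSO array 2 (0.0931).

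The increases with JQ1 included both SNAREs of neuronal release and SNAREs of other compartments. Stx1a, the syntaxin of transmitter release, read 8.51 and 8.66 with DMSO, 9.34 and 9.25 with JQ1, and 8.67 and 8.68 with GDC-0449. The JQ1 arrays were highest, a 1.63-fold rise (log2 change 0.71, SE 0.10, limma adjusted p = 0.000476), and the change with GDC-0449 was 0.09 (95% interval -0.14 to 0.32). Stx17, the autophagosome syntaxin, rose with JQ1 on both probes, by 0.75 (adjusted p = 0.00302) and 0.69 (adjusted p = 0.000357). Vamp1, a synaptobrevin, read 5.86 and 5.71 with DMSO, 6.60 and 6.53 with JQ1, and 6.14 and 5.99 with GDC-0449, and rose by 0.78 with JQ1 (adjusted p = 0.000359). Vamp2, the main synaptobrevin of the forebrain, did not pass in either comparison (0.30 with JQ1, 95% interval -0.01 to 0.60, and 0.23 with GDC-0449, -0.07 to 0.53). The second Vamp1 probe rose by 0.54 with JQ1, though not when DMSO array 2 (adjusted p = 0.0515) or JQ1 array 1 (0.0549) was left out.

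SNARE calls with GDC-0449 were 4 increases and 1 decrease among 25 probes (20%, against 15.3% of all tested probes), with log2 changes from -0.48 to 0.52. Stx5a, the Golgi syntaxin, read 10.90 and 11.15 with DMSO, 11.39 and 11.49 with JQ1, and 11.53 and 11.55 with GDC-0449. All treated arrays were above DMSO, with log2 changes of 0.42 for JQ1 (limma adjusted p = 0.0127) and 0.52 for GDC-0449 (adjusted p = 0.0195); a second probe gave 0.44 and 0.44. Stx7, of late endosomes, rose by 0.38 and 0.42 in the same order (adjusted p = 0.0211 and 0.0438), and Stx2, a plasma membrane syntaxin, by 0.40 with GDC-0449 (adjusted p = 0.045). Stx6, of the trans-Golgi network, read 8.46 and 8.29 with DMSO, 8.67 and 8.58 with JQ1 and 8.02 and 7.78 with GDC-0449. It fell by 0.48 with GDC-0449 (adjusted p = 0.0311), while a rise of 0.25 with JQ1 did not pass (adjusted p = 0.101). The direct difference of Stx6 was 0.73 (adjusted p = 0.00108), and its second probe did not pass in any contrast. Each of these GDC-0449 calls was lost with some array left out: Stx5a with DMSO array 1 (adjusted p = 0.102 and 0.0946), GDC-0449 array 1 (0.0754 and 0.0513) or GDC-0449 array 2 (0.081 and 0.146), and on the second probe DMSO array 2 (0.127). For Stx7 they were DMSO array 1 (0.0684), DMSO array 2 (0.185), GDC-0449 array 1 (0.135) and GDC-0449 array 2 (0.136), for Stx2 the same 4 (0.121, 0.166, 0.183 and 0.0968), and for Stx6 DMSO array 1 (0.16), DMSO array 2 (0.0671) and GDC-0449 array 2 (0.145). The Stx2 call was also lost under 5 of 10 processing alternatives: no background correction, an offset of 50, no filter on dim probes, detection on 1 array and an intensity trend (adjusted p up to 0.0954). With JQ1, the Stx7 call was lost without DMSO array 2 (0.129) or JQ1 array 1 (0.127), and the calls of Stx5a without DMSO array 1 (0.0776) or JQ1 array 2 (0.0686) on the brightest probe and DMSO array 2 (0.0528) or JQ1 array 1 (0.0533) on the second.

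**Figure D4:**
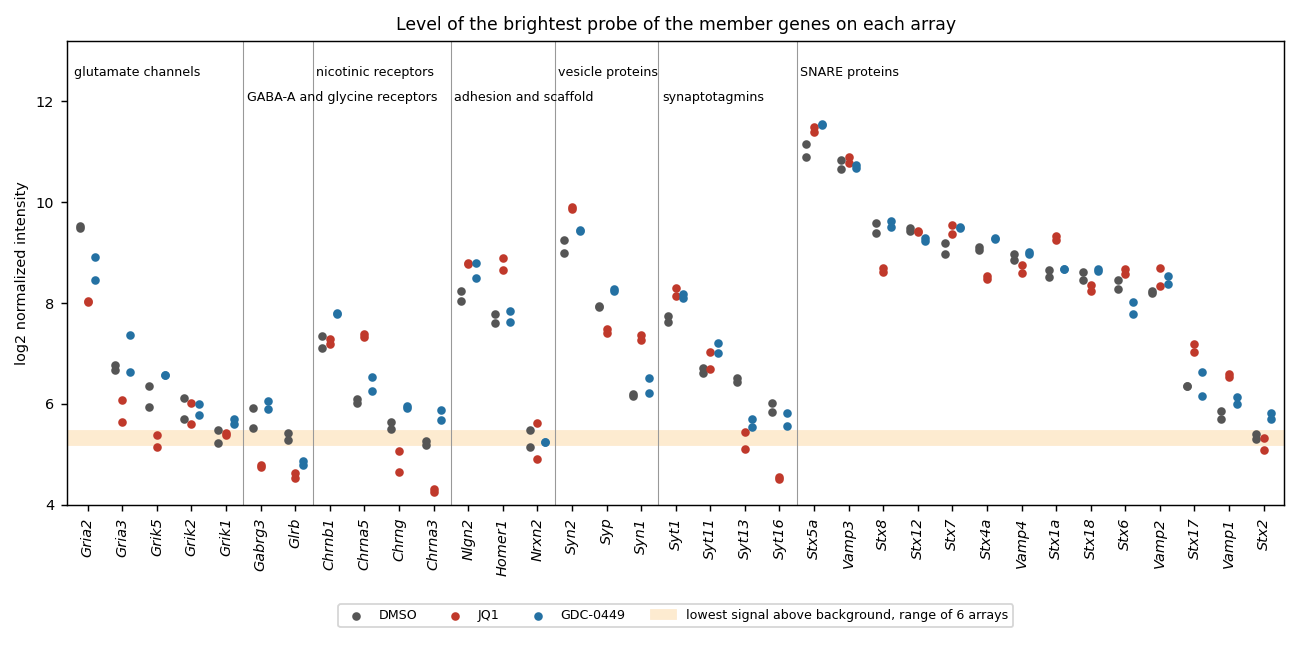
Log2 normalized intensity (y axis) of the brightest probe of the member genes on each of the 6 arrays, by role group; the band is the range of the lowest signal above background on the 6 arrays. JQ1 arrays lie below DMSO for Gria2 and Syt16 and above it for Homer1, Syn1 and Chrna5; levels of different probes are not comparable with each other.

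Other genes of the synapse were described beside the members from a list of 114 genes, of which 109 were on the array and 57 genes (93 probes) could be tested. With JQ1 30 of those probes rose and 31 fell (median log2 change 0.04), against 27.6% and 28.8% of all tested probes. With GDC-0449 11 rose and 4 fell (0.05), 16.1% called, near the 15.3% of all tested probes, and between the compounds 28 were higher with JQ1 and 29 lower (0.03). Pick1, an adaptor that binds AMPA receptor tails, read 9.62 and 9.77 with DMSO, 7.69 and 7.73 with JQ1, and 9.84 and 9.92 with GDC-0449 (JQ1 log2 change -1.98, limma adjusted p = 2.99e-06). Lin7b, a scaffold of the presynaptic and postsynaptic membrane, was above background with JQ1 alone (6.19 and 6.31), through which it was tested at all, so the filter fixed its direction, higher with JQ1. Its paralogue Lin7a rose by 1.23, Rab3d, a GTPase of secretory vesicles, by 1.22, and Camk2b, a calcium-dependent kinase of the postsynaptic density, fell by 1.49 (adjusted p = 2.1e-05, 1.83e-05 and 2.64e-05). Slc6a9, a glycine transporter, read 9.67 and 9.53 with DMSO, 7.78 and 7.99 with JQ1, and 8.80 and 8.59 with GDC-0449. It fell with either compound, by 1.72 with JQ1 (adjusted p = 1.25e-05) and 0.90 with GDC-0449 (adjusted p = 0.00322). Cplx2, a complexin that clamps SNARE complexes, was above background with DMSO alone (5.76 and 5.86), so its lower values with either compound were fixed in the same way. Nptx1, a secreted pentraxin that gathers AMPA receptors, read 5.44 and 5.42 with DMSO and 6.63 and 6.50 with JQ1 and was below background with GDC-0449; it rose by 1.13 with JQ1 (adjusted p = 9.71e-05) and was called lower with GDC-0449 (adjusted p = 0.00414).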

How the data were processed

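Total RNA was measured on Illumina bead arrays. Per the file headers, the authors deposited unnormalized linear bead intensities, averaged for each probe, and a detection p-value that ranks each probe among the negative controls of its array. The submitters' processing notes name GenomeStudio 1.9.0. The deposited value table, used as an alternative, holds linear signal intensities per gene name, with values below 0 and a median of 8.15 on every array; how probes were combined is not given in the sources used here.

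Intensities were background corrected and quantile normalized with neqc (limma 3.58.1, R 4.3.3, offset 16), which pulls changes of dim probes towards 0. Probes above background on at least 2 of 6 arrays were fitted with lmFit and eBayes on all 6 arrays (3 residual and 5.33 prior degrees of freedom). Tests were two-sided, with Benjamini-Hochberg adjustment over 17026 probes per contrast and a threshold of 0.05. The number of arrays limits the precision.

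A fold against a group with no array above background is "at least", computed with each lower value raised to the lowest signal above background on its array, and none is given where that bound is under 1. Members are named by the deposited symbol. Each probe of a gene was tested on its own, and "brightest" means by mean over the 6 arrays. In each role group the up to 4 probes with the smallest p in a contrast with DMSO were named, with those that disagree between probes, those above background in all arrays of 1 group and none of another, and Syn1, Syn2, Syp and Homer1. Members, lists and this rule were chosen with earlier results of these data known. A gene that the rule takes is not reported here, though it counts in all totals. Promoters and gene positions are RefSeq's, on GRCm38.p6.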

Additional observations from a re-analysis of the deposited data

How the results depend on the processing

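The number of members higher with GDC-0449 than with DMSO was 12, and 4 with no filter on dim probes, where 45281 probes share the adjustment. With 1 array left out in turn it ranged from 1 to 11, and the number lower from 3 to 6 (6 with all arrays). For JQ1 against DMSO the ranges were 14 to 18 higher (18) and 19 to 21 lower (21), and for JQ1 against GDC-0449 12 to 14 (14) and 20 to 24 (23). The other alternatives (median scaling, no background correction, an offset of 50, detection on 1 array, 1 probe per gene, only the compared groups, an intensity trend, the value table) kept every member count within 1.5 times. Over all tested probes, GDC-0449 gave 1232 higher and 1380 lower calls, 752 and 857 with no filter on dim probes, and 314 and 408 without DMSO array 1. With no filter on dim probes the calls lost included those with GDC-0449 of Stx2, Stx5a, Stx6, Stx7, Nlgn2, Syt11 and Syp, and those with JQ1 of 1 Stx4a and 1 Gria3 probe; under median scaling they included the GDC-0449 calls of Stx7 and Syp. One value turned: an Nrxn2 probe with -0.05 (not called) for JQ1 against DMSO was 0.44 in the authors' value table (adjusted p = 0.0212), which holds 1 value per gene name; the cause was not tested. Signs of uncalled probes changed for 12 of 171 values under median scaling.

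No marked shift shared by same-numbered arrays was seen: their deviations correlated at 0.00653, -0.013 and 0.0718. Whether the numbers 1 and 2 in the titles pair the samples cannot be decided from this, as noise of single probes can hide a shared origin. With the replicate block, 18 members rose and 21 fell with JQ1, 11 and 6 with GDC-0449, and 14 and 24 between the compounds. Signal over background limits the 11 members with a group wholly below background in JQ1 against DMSO, and 3 in GDC-0449 against DMSO.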
